A study of Mus musculus with 36 samples.

Results

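The genes described here are 9 regulators and surface markers of blood stem cells, Mecom, Hlf, Gata2, Procr, Fgd5, Tal1, Lmo2, Erg and Ndn. They were found by symbol among the 55414 gene identifiers of the 2 deposited count tables, and all 9 were present, each under 1 identifier: ENSMUSG00000027684 (Mecom), ENSMUSG00000003949 (Hlf), ENSMUSG00000015053 (Gata2), ENSMUSG00000027611 (Procr), ENSMUSG00000034037 (Fgd5), ENSMUSG00000028717 (Tal1), ENSMUSG00000032698 (Lmo2), ENSMUSG00000040732 (Erg) and ENSMUSG00000033585 (Ndn). RNA was sequenced from 36 samples of sorted mouse cells, 4 in each of 9 groups. All mice carried Kmt2a-AFF1, the fusion of mixed lineage leukaemia in infants, controls included. Leukaemia mice also overexpressed miR-130b according to the sample labels (the design text names miR-130a) and had reached terminal leukaemia, whereas control mice overexpressed a scrambled miRNA and were non-leukaemic. Sorted Lin- c-Kit+ cells were HSC/MPP (Sca-1+ Flt3-), LMPP (Sca-1+ Flt3+) or LK/CLP (Sca-1-), written HSC, LMPP and LK here. Each of 12 leukaemia mice gave 1 library from bone marrow (BM) and 1 from the central nervous system (CNS), both of a single sorted type, so types of the leukaemia arm come from different mice, and each of 4 control mice gave BM libraries of all 3 types. The sources used here state neither the age of the mice nor how the fusion and the miRNA were delivered.

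Blood stem cells keep themselves through a set of transcription factors that bind the same regulatory regions, and Gata2, Tal1, Lmo2 and Erg belong to it together with Lyl1, Fli1 and Runx1 (the heptad factors). Mecom, which encodes Evi1, and Hlf act mainly in the most immature cells and are among the genes linked to aggressive leukaemia with fusions of the Kmt2a gene. Procr and Fgd5 are used as markers of long-term stem cells, and Ndn encodes necdin, a regulator of stem cell quiescence.

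The agents of the leukaemia arm are shown because the labels disagree on which was used. The RefSeq mature sequences (GRCm38.p6), with the seed (bases 2 to 8) in capitals, are:
miR-130a-3p: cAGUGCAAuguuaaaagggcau
miR-130b-3p: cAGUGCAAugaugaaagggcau
Both are 22 bases long, share the seed AGUGCAA and differ at 2 positions, 11 and 13 counted from the 5′ end.

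Hlf and Tal1 fell in leukaemia over control in all 3 sorted types, so the 250 bases upstream of their annotated starts are shown (RefSeq, GRCm38.p6, gene strand, matched motif in capitals). The Hlf window lies at chr11:90390918-90391167 on the minus strand, and its capitals mark the single match to CAGNTG, the E-box form bound by Tal1, read on the opposite strand. The Tal1 window lies before the first annotated start at chr4:115056176-115056425 on the plus strand, and its capitals mark the single match to AGATAA, the letters that GATA factors bind, also read on the opposite strand. No transcript used here holds the bases after that Tal1 start, and the window before the second start, chr4:115057561-115057810, which a transcript does support, held 0 matches to AGATAA and 0 to CAGNTG.
Hlf: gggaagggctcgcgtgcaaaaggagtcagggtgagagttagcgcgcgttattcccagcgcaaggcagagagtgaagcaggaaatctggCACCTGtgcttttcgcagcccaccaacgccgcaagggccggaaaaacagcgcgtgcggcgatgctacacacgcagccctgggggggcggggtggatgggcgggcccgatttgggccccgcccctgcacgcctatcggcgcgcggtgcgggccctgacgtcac
Tal1: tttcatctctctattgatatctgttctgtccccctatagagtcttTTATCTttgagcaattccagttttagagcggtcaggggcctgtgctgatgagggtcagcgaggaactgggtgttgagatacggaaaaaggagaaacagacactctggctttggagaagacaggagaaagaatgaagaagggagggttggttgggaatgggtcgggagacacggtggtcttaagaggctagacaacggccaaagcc
Both strands were searched for these motifs and for CGGAAG and TTACGTAA, the ETS and PAR bZIP motifs. A match to AGATAA can share bases with a match to CGGAAG or TTACGTAA, and no other pair can overlap. Of 32851 RefSeq windows of 250 bases, 44.8% held CAGNTG, 9.99% AGATAA, 13.6% CGGAAG and 0.113% TTACGTAA, so the Hlf match is of a frequent kind. Of the 9 genes, 8 had an entry, with 13 windows in all. Lmo2 had none.

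Library totals ran from 1909638 to 30442297 counts. Genes of sensory receptors, 1515 in number, were used to estimate a uniform background for each library, and its share of a library was 0.454 to 26.5% in leukaemia, and in controls 6.51 to 12.4% for LK, 14.2 to 27.0% for LMPP and 21.7 to 27.7% for HSC. A gene was taken as above background in a library when it had more counts than 10 plus 3 times the background over its exons. Levels are given as CPM, counts divided by a library size that covers only genes above background in at least 4 of the 36 libraries. Of the genes of the sort, Ly6a, which encodes Sca-1, followed the labels. Its mean was 16.5 to 41.1 CPM in HSC and LMPP groups and 2.54 to 3.13 CPM in LK groups. In controls, mean Flt3 was 269 CPM in LMPP against 38 CPM in HSC and 41.1 CPM in LK. In leukaemia BM it was 519 CPM in LMPP, 72.6 CPM in HSC and 297 CPM in LK, so LK was above control LMPP. In leukaemia CNS the means were 574, 74.8 and 277 CPM. Il7r, a further gene of the sort, was above background in 5 of the 36 libraries and in 0 of 4 of each LK group. Each comparison was tested with edgeR's quasi-likelihood test across all genes, with Benjamini-Hochberg adjustment and a threshold of 0.05, in a fit of all genes with enough counts (the all-gene fit) and in a fit of genes above background. Because background differed between groups, the fits scale libraries differently, and "rose" and "fell" are used where both called the same direction. Procr and Ndn did not pass the filter on background in any comparison, and in the leukaemia libraries Hlf and Fgd5 did not either.

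The 9 genes were present at very different levels. Per kb of exon, Lmo2, an adaptor that bridges Tal1 and GATA factors, was highest of the 9 in leukaemia BM HSC at a mean of 95 CPM per kb, and Ndn was lowest at 0.937 CPM per kb. Between them in the same group stood Gata2 at 38.9, Erg at 23.6, Mecom at 9.12, Fgd5 at 2.52, Procr at 2.33, Tal1 at 2.25 and Hlf at 1.09 CPM per kb. In control HSC the order of the level per kb differed for Hlf, at 16.6 CPM per kb, and Tal1, at 9.7 CPM per kb. Lmo2 was above background in all 24 leukaemia and all 12 control libraries, Erg in 23 and 12, Gata2 in 22 and 10, and Mecom in 22 and 7. Tal1 was above background in 4 leukaemia and 9 control libraries, and Hlf in 0 and 11. Fgd5 was above background in 0 and 4 libraries, Procr in 1 and 1, and Ndn in 0 and 0, so values of Ndn cannot be told from background.

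**Figure D1:**
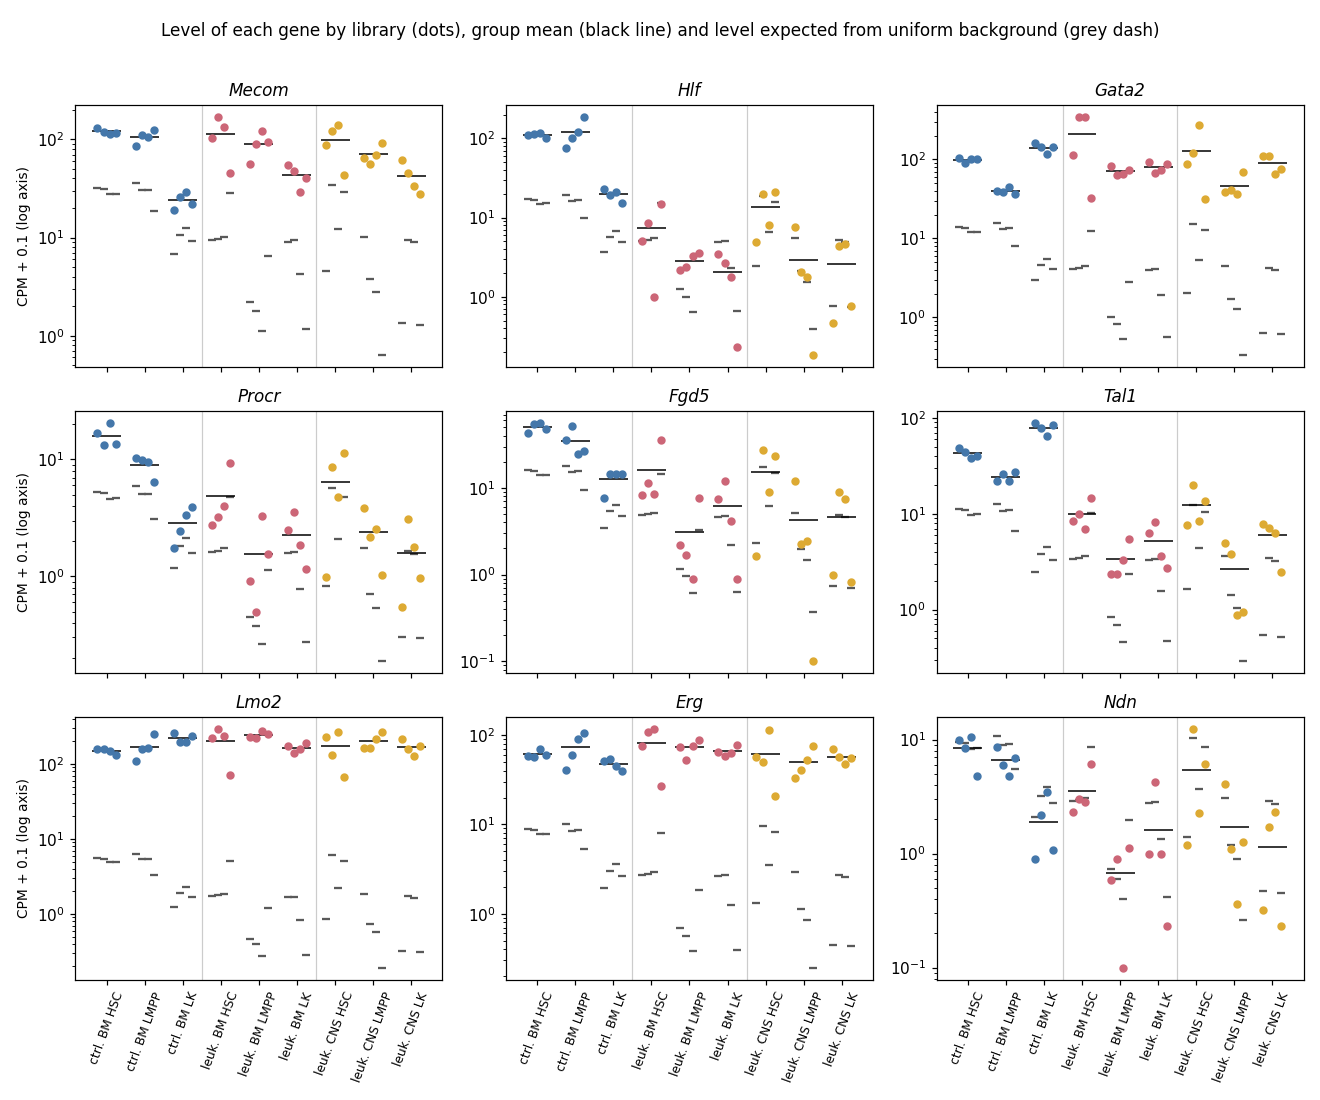
Level of each of the 9 genes (CPM, scaled over genes above background) in each library of the 9 groups, with points for libraries and bars for group means; each panel has its own axis. Hlf and Tal1 are low in leukaemia groups and high in control groups, whereas Mecom, Gata2, Lmo2 and Erg are present in both arms.

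Hlf, a PAR bZIP transcription factor, was separated between the arms within every sorted type. Control HSC libraries held 112, 113, 117 and 102 CPM, control LMPP libraries 76.8, 100.4, 119 and 188 CPM, and control LK libraries 23.1, 19.2, 21.2 and 15 CPM. In leukaemia BM the libraries held 4.98, 8.55, 0.907 and 14.7 CPM in HSC, 2.09, 2.27, 3.18 and 3.42 CPM in LMPP, and 3.35, 2.58, 1.66 and 0.132 CPM in LK. Within each sorted type every leukaemia BM library was below every control library. The share of all genes whose libraries do not overlap between groups was not counted, here or for the genes below. Counts of Hlf in leukaemia libraries were 0.168 to 5.86 times the background for its length, with a median of 1, against 3.06 to 19 times in controls, with a median of 6.53. The level in leukaemia was therefore not distinguishable from background, and a fold change of Hlf does not measure how much of its RNA was left.

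Tal1, a basic helix-loop-helix factor of stem cells and of the red and megakaryocyte lineages, was also separated between the arms. Control LK libraries held 88.1, 77.5, 64.8 and 83.3 CPM, control HSC 48.5, 43.4, 38.4 and 39.7 CPM, and control LMPP 21.7, 25.8, 22.1 and 26.9 CPM. Leukaemia BM libraries held 8.27, 9.87, 6.8 and 14.4 CPM in HSC, 2.25, 2.27, 3.18 and 5.39 CPM in LMPP, and 6.21, 8.12, 3.54 and 2.64 CPM in LK. Every one of the 24 leukaemia libraries, CNS included with a highest value of 19.7 CPM, was below the lowest control library, at 21.7 CPM. Expected background made up 12.2 CPM of the former value and 12.6 CPM of the latter. The ranges of neighbouring control types did not overlap either, with LK highest and LMPP lowest.

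Gata2, a zinc finger factor needed for stem cell maintenance and for mast cells, had its highest and its lowest BM values in leukaemia HSC. Those libraries held 115, 346, 347 and 32 CPM (mean 209.9 ± 161 CPM, SD, n = 4), and the CNS libraries of the same mice 88.5, 121, 277 and 31.9 CPM. Control libraries held 105, 89.9, 101 and 100.2 CPM in HSC, 39.8, 38.6, 44.3 and 36.1 CPM in LMPP, and 161, 145, 117 and 142 CPM in LK. Leukaemia BM libraries held 82.9, 62.6, 65.2 and 73.2 CPM in LMPP and 91.5, 67.6, 73.8 and 86.8 CPM in LK. Across the 9 groups in order of the mean, the ranges of all neighbours overlapped, from leukaemia BM HSC through control LK, leukaemia CNS HSC, control HSC, leukaemia CNS LK, BM LK, BM LMPP and CNS LMPP to control LMPP.

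Mecom, the zinc finger factor that keeps stem cells undifferentiated, had its lowest group means in LK in both arms. Control libraries held 131, 119, 114 and 117 CPM in HSC, 84.7, 112, 106 and 124 CPM in LMPP, and 19.1, 25.7, 28.8 and 22 CPM in LK. Leukaemia BM libraries held 103, 169.9, 135 and 45 CPM in HSC, 55.4, 90.3, 123 and 94.1 CPM in LMPP, and 55.3, 47.8, 29.3 and 40.5 CPM in LK. Arms overlapped in HSC and LMPP, whereas in LK all 4 leukaemia BM libraries were above the 4 controls, the nearest pair being 29.3 and 28.8 CPM. In order of the group mean the only neighbours whose ranges did not overlap were leukaemia CNS LMPP (56.1 to 91.3 CPM) and leukaemia BM LK (29.3 to 55.3 CPM). Control counts of Mecom were 2.31 to 6.74 times background, and no control LK library was above background for this gene. Mecomos, an antisense gene that shares exon sequence with Mecom, had group means of 1.93 to 17.3 CPM and was above background in 1 library. No source used here states the strand setting of the counting, so reads of the pair cannot be told apart.

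Lmo2 and Erg, an ETS factor of stem cells and endothelium, were above background in both arms. Lmo2 group means ran from 149.7 ± 11.9 CPM in control HSC to 244 ± 24.5 CPM in leukaemia BM LMPP, and Erg group means from 47.4 ± 6.83 CPM in control LK to 81.6 ± 40.8 CPM in leukaemia BM HSC (SD, n = 4). The 3 low abundance markers had their highest group means in control HSC, a group with high background. Fgd5, a guanine nucleotide exchange factor, had 43.2, 53.9, 55.8 and 47.6 CPM there and 7.63 to 14.5 CPM in control LK. Procr, the endothelial protein C receptor, had 16.6, 13.1, 20.4 and 13.4 CPM in control HSC and 1.66 to 3.79 CPM in control LK, and Ndn had 9.82, 8.27, 10.4 and 4.72 CPM and 0.792 to 3.37 CPM. The background expected for the exon length of Ndn was 8.18 to 9.36 CPM in control HSC, and less that background its ranges in control HSC and LK overlapped. Less background, Fgd5 was at 27.3 to 41.9 CPM in control HSC and 4.26 to 9.79 CPM in control LK, and Procr at 8.04 to 15.9 and 0.57 to 2.3 CPM, with no overlap for either. Across the 12 control libraries the levels of Fgd5, Procr and Ndn had an r of 0.93, 0.90 and 0.88 with the share of background.

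One leukaemia mouse stood apart within HSC. In HSC mouse 4, the BM library had the lowest Mecom (45 CPM), Gata2 (32 CPM), Lmo2 (72 CPM) and Erg (26.5 CPM) of the 4 leukaemia BM HSC libraries, and the highest Hlf, Procr, Fgd5, Tal1 and Ndn. Its CNS library was also the lowest of the CNS HSC group for Mecom (43.2 CPM), Gata2 (31.9 CPM), Lmo2 (67.7 CPM) and Erg (20.8 CPM). Background was 26.5% of counts in the BM library and 15.2% in the CNS library of this mouse, against 8.98 to 9.13% in the other 3 BM HSC libraries and 3.44 to 24.3% in the other CNS HSC libraries. The part of background in these values was not tested. Comparisons that use leukaemia libraries were therefore also run without this mouse and without LMPP mouse 3, which has the shallowest library.

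The first comparison asks how the genes differ between sorted types in non-leukaemic marrow. Mecom, Hlf and Fgd5 rose in control HSC over LK, and Tal1 fell. Mecom and Fgd5 passed the filter on background through HSC and LMPP libraries, with 0 of 4 LK libraries above background. A difference from LK in the fit above background was thus bound to appear for them. Mecom differed by a log2 fold change of 1.15 ± 0.23 in the all-gene fit (SE, edgeR adjusted p = 0.000119) and by 2.75 ± 0.16 in the fit above background (adjusted p = 6.92e-10). Hlf differed by 1.27 ± 0.29 (edgeR adjusted p = 0.000432) and 2.92 ± 0.19 (2.57e-09), and Fgd5 by 0.82 ± 0.22 (0.00256) and 2.40 ± 0.25 (2.27e-07). Tal1 fell by 2.13 on the log2 scale with an SE of 0.25 (edgeR adjusted p = 1.02e-08), and by 0.45 with an SE of 0.11 (0.00133) above background. In the all-gene fit all 9 genes were called, 5 higher and 4 lower, among 44.7% of all genes called (19.7% higher and 25% lower). Above background 5 of the 7 tested were called, 4 higher and 1 lower, among 70.3% (36.7% higher and 33.6% lower), so a call by itself does not set these genes apart.

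Erg reversed between the fits, at -0.85 ± 0.28 in control HSC over LK in the all-gene fit (edgeR adjusted p = 0.0129) and 0.80 ± 0.18 above background (0.000819). Gata2 and Lmo2 were called lower in the all-gene fit, at -1.76 ± 0.26 and -1.82 ± 0.32, and were near 0 above background, at -0.08 ± 0.12 and -0.14 ± 0.16 (edgeR adjusted p = 0.555 and 0.462). With library totals both were called lower, at -0.36 and -0.42 (edgeR adjusted p = 0.0359 and 0.0464). On the CPM scale control HSC lay below control LK, at 89.9 to 105 and 117 to 161 CPM for Gata2. For Lmo2 the ranges were 134 to 160 and 194 to 260 CPM. Less the expected background, neither gene overlapped between these types either. Procr and Ndn, tested in the all-gene fit only, were called higher, at 1.35 ± 0.24 (edgeR adjusted p = 1.91e-05) and 1.10 ± 0.32 (0.00591), in the direction of the background, whose part was not tested. The median of all genes lay at 0.31 in the all-gene fit, at 0.03 above background and at 1.61 when libraries were scaled by their totals. Scaled by totals, Mecom was at 2.46 and Hlf at 2.64. Less the background expected for their exon length, control HSC and LK levels were 86.5 to 99.5 and 12.4 to 16.4 CPM for Mecom, and 87 to 102 and 10.1 to 19.5 CPM for Hlf.

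In control LMPP over LK, Mecom and Hlf rose and Gata2 and Tal1 fell. Mecom and Fgd5 again had 0 of 4 LK libraries above background, so the fit above background gives no separate support for their difference. Tal1 was above background in 1 of 4 and Gata2 in 2 of 4 LMPP libraries, against 4 of 4 LK libraries each. The falls of Tal1 and Gata2 thus end in values near background. Mecom differed by 1.07 ± 0.23 in the all-gene fit (edgeR adjusted p = 0.000296) and 2.49 ± 0.15 above background (1.71e-09), and Hlf by 1.52 ± 0.29 (4.37e-05) and 2.94 ± 0.19 (2.23e-09). Gata2 was 7.99-fold lower in the all-gene fit (edgeR adjusted p = 2.58e-10) and differed by -1.47 ± 0.13 above background (5.35e-08), and Tal1 by -2.85 ± 0.26 (2.18e-10) and -1.35 ± 0.11 (4.18e-08). The all-gene fit called 5 of the 9 genes, 2 higher and 3 lower, among 39.8% of all genes (15.3% higher and 24.5% lower). The fit above background called 6 of 7, 4 higher and 2 lower, among 66.1% (34.5% higher and 31.5% lower). Lmo2 was called lower in the all-gene fit alone, at -1.50 ± 0.32 against -0.04 ± 0.16 above background. Fgd5 (1.81 ± 0.25) and Erg (0.97 ± 0.18) were called higher above background alone, and Erg again had the opposite sign in the all-gene fit, at -0.45.

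Between control HSC and LMPP, which differ in Flt3 on their surface, Gata2 was higher in HSC in both fits. Its log2 fold change was 1.24 ± 0.26 in the all-gene fit (edgeR adjusted p = 0.0287) and 1.39 ± 0.13 above background (1.01e-05), and no HSC library overlapped an LMPP library. It was the only one of the 9 genes called in the all-gene fit, which called 0.183% of all genes, and in the fit above background, which called 2.24%, it was joined by Tal1 at 0.90 ± 0.12 (edgeR adjusted p = 0.000393). Tal1 was above background in 1 of 4 and Gata2 in 2 of 4 control LMPP libraries, against 4 of 4 control HSC libraries each. The fit above background thus sets both against values near background in LMPP. With the mouse as a block the all-gene fit called 0.111% of genes and none of the 9, with Gata2 at 1.23 (edgeR adjusted p = 0.0851), whereas the blocked fit above background kept Gata2 at 1.39 (0.00016). The all-gene call of Gata2 remained in 5 of 12 fits that left out 1 library, and the call above background in 12 of 12. Hlf differed by -0.25 and Mecom by 0.07 in the all-gene fit, neither called.

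**Figure D2:**
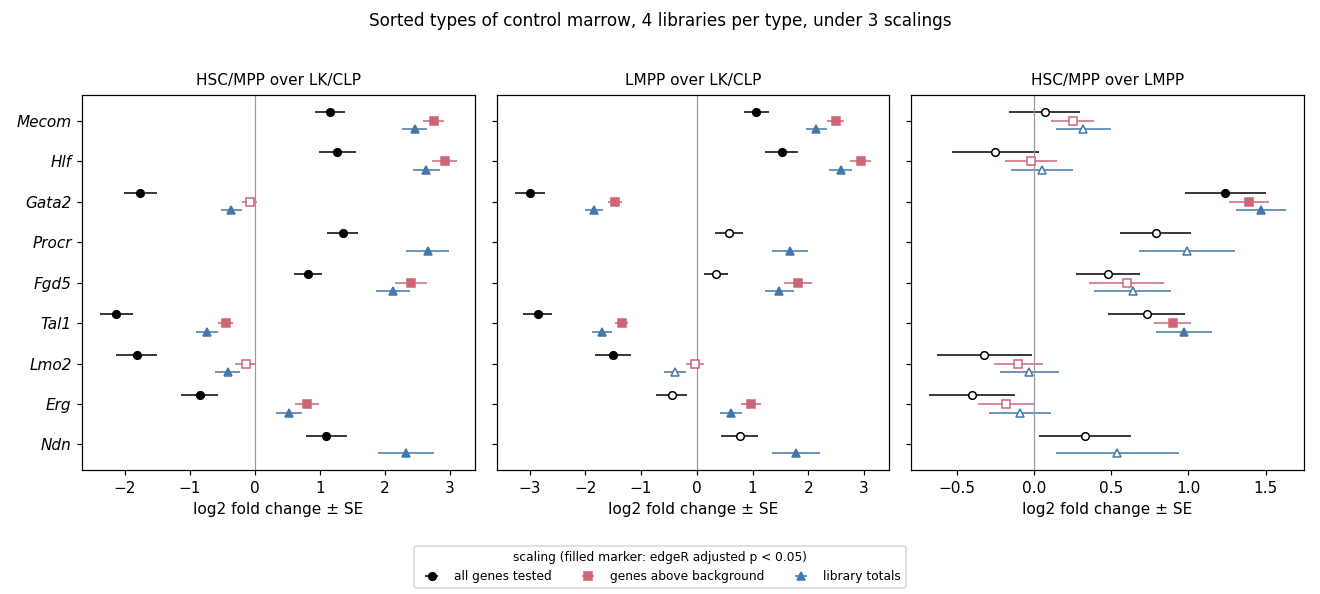
Log2 fold change ± SE of each gene between the sorted types of control marrow, 4 against 4 libraries, under 3 scalings; filled markers have an edgeR adjusted p under 0.05. Mecom and Hlf lie to the right of 0 in HSC and LMPP over LK under each scaling, whereas Erg, Gata2 and Lmo2 move with the scaling.

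Leukaemia was then compared with control within each sorted type of BM. In bulk samples fewer cells with a transcript and less of it per cell cannot be told apart. Here arm, overexpressed miRNA and deposited table coincide, so their effects cannot be told apart either. Hlf and Tal1 fell in HSC, LMPP and LK. Hlf, Fgd5 and Tal1 passed the filter on background through control libraries, with Tal1 above background in 1 leukaemia BM library, so a difference in that fit was bound to appear for them. In HSC, Hlf differed by -3.08 ± 0.47 in the all-gene fit (edgeR adjusted p = 4.87e-06) and by -4.07 ± 0.49 above background (2.38e-06), and Tal1 by -1.12 ± 0.32 (0.00627) and -2.23 ± 0.29 (4.64e-06). In LMPP, Hlf differed by -4.07 ± 0.51 (edgeR adjusted p = 1.12e-07) and -5.65 ± 0.57 (1.81e-07), and Tal1 by -1.39 ± 0.34 (0.000827) in the all-gene fit and 8.03-fold lower above background (4.72e-07). In LK, Hlf differed by -3.08 ± 0.49 (edgeR adjusted p = 5.12e-05) and -3.31 ± 0.53 (0.000104), and Tal1 by -3.70 ± 0.35 (1.51e-09) and -3.94 ± 0.31 (1.05e-08). Since the leukaemia values lie near background, these fold changes do not measure how much Tal1 RNA was left. Less the background expected for its exon length, Tal1 was at 28.7 to 37.4 CPM in control and 3.26 to 6.5 CPM in leukaemia HSC. The ranges were 9.1 to 20.4 and 1.5 to 3.16 CPM in LMPP, and 60.4 to 85.8 and 2.07 to 4.86 CPM in LK, with no overlap in any type.

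In HSC the all-gene fit called 6 of the 9 genes, 4 higher and 2 lower, among 21.4% of all genes (20.3% higher and 1.06% lower). The fit above background, with 48.2% of genes called (27.6% higher and 20.6% lower), called Hlf, Tal1 and Fgd5 lower and Gata2 higher. Gata2 thus rose in leukaemia HSC, by 2.33 ± 0.48 in the all-gene fit (edgeR adjusted p = 0.000186) and 0.95 ± 0.38 above background (0.0434), with 3 of 4 leukaemia libraries above all controls and 1 below them. That call rests on few libraries: it remained in 8 of 24 fits above background that left out 1 library, which gave 0.58 to 1.30, and without the 2 mice named above it was 1.29 (edgeR adjusted p = 0.00011). Mecom, Erg and Lmo2 were called higher in the all-gene fit alone, at 1.13 ± 0.37, 1.63 ± 0.43 and 1.69 ± 0.43, and were at -0.21 ± 0.27, 0.29 ± 0.29 and 0.33 ± 0.26 above background. Without leukaemia HSC library 4 of BM, Lmo2 and Erg were called higher above background too, at 0.60 and 0.56. Fgd5 was at -0.87 ± 0.42 in the all-gene fit (edgeR adjusted p = 0.17) and -1.76 ± 0.54 above background (0.0118). Procr and Ndn were not called in the all-gene fit, at -0.88 ± 0.40 and -0.36 ± 0.52. Procr was called lower with library totals (-1.80, edgeR adjusted p = 0.0248), RLE scaling (-1.65, 0.0138), only these 2 groups (1.99-fold lower, 0.027) and DESeq2 (-1.66, DESeq2 adjusted p = 0.000653).

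In LMPP, Hlf, Tal1 and Fgd5 were called lower in both fits, Fgd5 at -1.81 ± 0.45 in the all-gene fit (edgeR adjusted p = 0.00109) and -3.44 ± 0.62 above background (6.73e-05). Fgd5 had 35.2, 52.1, 24.8 and 26.2 CPM in control LMPP and 2.09, 1.6, 0.795 and 7.62 CPM in leukaemia BM LMPP, with no overlap. Tal1 and Fgd5 were each above background in 1 of 4 control and 0 of 4 leukaemia BM LMPP libraries. The expected background also differed, at 6.49 to 12.6 CPM in control and 0.356 to 2.23 CPM in leukaemia for Tal1, and at 9.32 to 18 and 0.511 to 3.2 CPM for Fgd5. Less that background, Fgd5 was at 9.3 to 36.9 CPM in control and 0.284 to 4.42 CPM in leukaemia LMPP. The all-gene fit called 9 of 9, 4 higher and 5 lower, among 62.8% of genes (26% higher and 36.8% lower), and above background 3 of 7 were called, all lower, among 64.7% (32.7% higher and 32% lower). Procr and Ndn were among the lower ones, at -1.45 ± 0.46 and -1.64 ± 0.60 (edgeR adjusted p = 0.00793 and 0.0192), in the all-gene fit only. The 4 called higher in that fit, Gata2 (2.37 ± 0.48), Lmo2 (1.90 ± 0.44), Erg (1.37 ± 0.43) and Mecom (1.14 ± 0.37), were not called above background, at 0.70 ± 0.39, 0.38 ± 0.26, -0.16 ± 0.29 and -0.39 ± 0.28. Without leukaemia mice HSC 4 and LMPP 3, the fit above background called Gata2 higher (0.72, edgeR adjusted p = 0.0126) and Mecom lower (-0.58, 0.0234), the opposite of its all-gene call. The median of all genes was -1.10 in the all-gene fit and 0.02 above background, and Mecom and Erg have opposite signs in the 2 fits.

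In LK, the control type with the least background, only Hlf and Tal1 were called in both fits. The all-gene fit called 2 of 9 genes, Hlf and Tal1, both lower, among 3.52% of genes (2.22% higher and 1.3% lower). Above background 3 of 7 were called among 17.1% (10% higher and 7.14% lower), with Mecom higher at 0.84 ± 0.28 (edgeR adjusted p = 0.0398). Mecom was at 1.16 ± 0.38 in the all-gene fit (edgeR adjusted p = 0.0775) and its call above background remained in 18 of 24 fits that left out 1 library. Gata2 was at -0.50 ± 0.46 in the all-gene fit and -0.84 ± 0.38 above background (edgeR adjusted p = 0.133), although no leukaemia LK library reached a control one. Without the 2 mice it was called, at -0.84 (edgeR adjusted p = 0.00812). Lmo2 at -0.10 and Erg at 0.81 were not called in the all-gene fit, nor above background, at -0.44 and 0.45. Erg was called with only the 2 groups compared (0.79, edgeR adjusted p = 0.0498). No leukaemia LK library of Lmo2 (141 to 191 CPM) reached a control one (194 to 260 CPM). All leukaemia LK libraries of Erg (59 to 78.1 CPM) were above the controls (39.1 to 54.5 CPM).

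**Figure D3:**
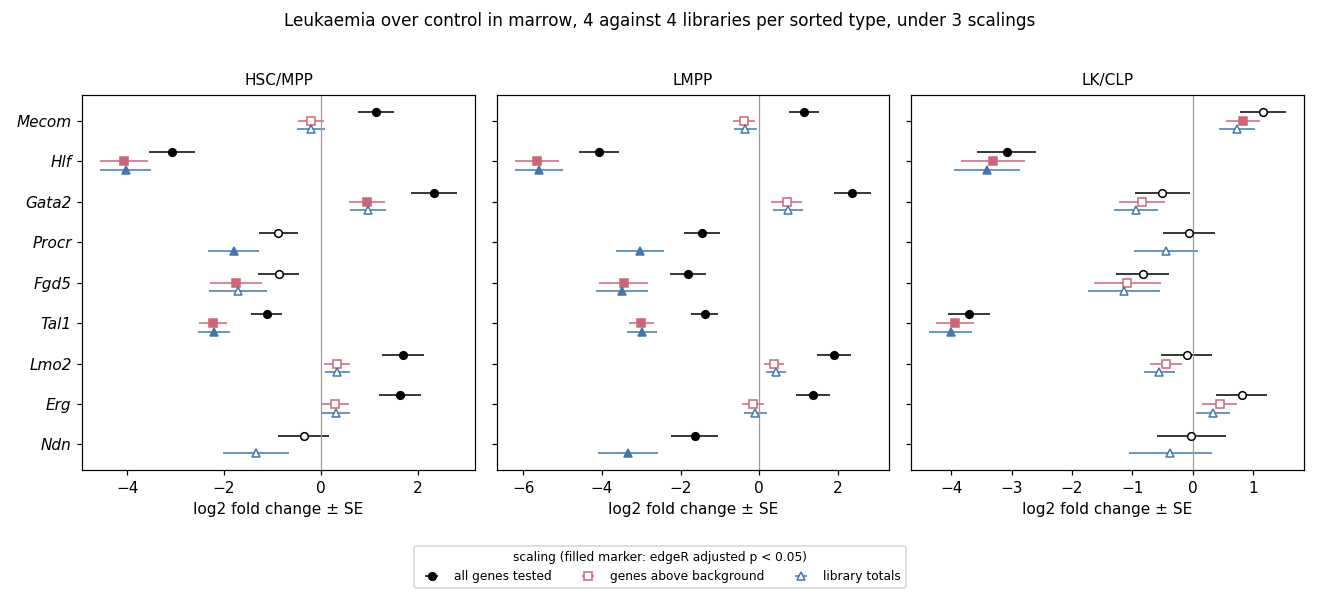
Log2 fold change ± SE of each gene in leukaemia over control BM, by sorted type (4 against 4 libraries), under 3 scalings; filled markers have an edgeR adjusted p under 0.05. Hlf and Tal1 lie left of 0 with filled markers in each panel and scaling, and Mecom, Gata2, Lmo2 and Erg move with the scaling.

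The signed log2 fold change of HSC over LK was itself tested between arms, as leukaemia minus control. For Gata2 it was larger in leukaemia than in control by 2.84 ± 0.66 in the all-gene fit (edgeR adjusted p = 0.00913) and 1.79 ± 0.54 above background (0.0212). On the CPM scale the leukaemia BM mean of Gata2 was 209.9 in HSC and 79.9 in LK, against 99.1 and 141 in control. For Tal1 the signed value was higher in leukaemia by 2.58 ± 0.45 (edgeR adjusted p = 0.00114) and 1.72 ± 0.40 (0.00456). In control it was negative, at -2.13 in the all-gene fit, and Tal1 itself was lower in leukaemia. Its means were 9.84 and 5.13 CPM in leukaemia HSC and LK and 42.5 and 78.4 CPM in control. Tal1 was above background in 0 of 4 leukaemia BM HSC and 1 of 4 leukaemia BM LK libraries, so on the leukaemia side this compares values near background. These were the 2 of 9 genes called in the all-gene fit, among 6.13% of all genes (6.06% higher and 0.069% lower), and the 2 of 7 called above background, among 19.1% (14.6% higher and 4.49% lower). The Gata2 call above background was lost in 1 of 24 fits, without leukaemia BM HSC library 3 (edgeR adjusted p = 0.0631). Mecom was at -0.04 in the all-gene fit and -1.05 ± 0.39 above background (edgeR adjusted p = 0.0603).

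Within leukaemia BM none of the 9 genes was called between sorted types in either edgeR fit. In HSC over LK the all-gene fit called 0% of 40332 genes (2354 had an unadjusted p under 0.05), the fit above background 0.0316% and DESeq2 0.255%, the last including Mecom. Mecom was at 1.12 ± 0.51 in the all-gene fit (edgeR adjusted p = 0.689), 1.41 ± 0.36 above background (0.121) and 1.36 ± 0.38 in DESeq2 (DESeq2 adjusted p = 0.0489). Without the 2 mice it was 1.67 ± 0.30 above background and was called (edgeR adjusted p = 0.0256). Gata2 was at 1.42 ± 0.52 above background in HSC over LK (edgeR adjusted p = 0.205) and at 1.58 ± 0.53 in HSC over LMPP (0.165). In HSC over LMPP 0% of genes were called in the all-gene fit (6785 at an unadjusted p under 0.05, and 1221 by DESeq2) and 0.0696% above background. In LMPP over LK the shares were 0% (975, and 28 by DESeq2) and 0.00632%. A p that misses the threshold with 4 mice per type does not show that levels were alike.

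The 12 CNS and BM pairs ask whether the genes differ by niche within a mouse. Erg was lower in CNS in 11 of 12 pairs, in all 4 of HSC, all 4 of LMPP and 3 of LK. The share of all genes lower in that many pairs was not counted, for Erg or for the counts of pairs below. In BM the Erg libraries held 75.4, 109, 116 and 26.5 CPM in HSC, 74.3, 52.7, 75.5 and 88.1 CPM in LMPP and 64, 59, 62.6 and 78.1 CPM in LK. Their CNS partners held 57.1, 49.5, 115 and 20.8 CPM, 32.6, 40.6, 52.8 and 75.6 CPM, and 69.5, 56.6, 47.9 and 55.8 CPM, in the same order. The median log2 ratio of the pairs was -0.39, from -1.19 to 0.12, and the ranges of the tissues overlapped within each type.

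Without a mouse term Erg was at -0.38 ± 0.32 in the all-gene fit (edgeR adjusted p = 1), which called 0% of 40332 genes (794 at an unadjusted p under 0.05, and 74 by DESeq2, none of the 9), as did the fit above background. With the mouse as a block on genes above background it was -0.43 ± 0.11 (edgeR adjusted p = 0.0405), the 1 called of the 5 genes tested there, among 2.69% of genes called (0.873% lower). The blocked all-gene fit gave -0.43 ± 0.25 (edgeR adjusted p = 1). Gata2 was lower in CNS in 10 of 12 pairs, with a median log2 ratio of -0.27, and was at -0.37 ± 0.13 in the blocked fit above background (edgeR adjusted p = 0.18). Mecom was lower in 8 and Lmo2 in 7 pairs, with means of 82.5 CPM in BM and 70.2 CPM in CNS for Mecom and of 205 and 182 CPM for Lmo2. Hlf was lower in 5, Procr in 7, Fgd5 in 6, Tal1 in 6 and Ndn in 5 of 12 pairs. By sorted type no gene of the 9 was called, and a test of whether the CNS difference depends on the type called 0% of genes.

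**Figure D4:**
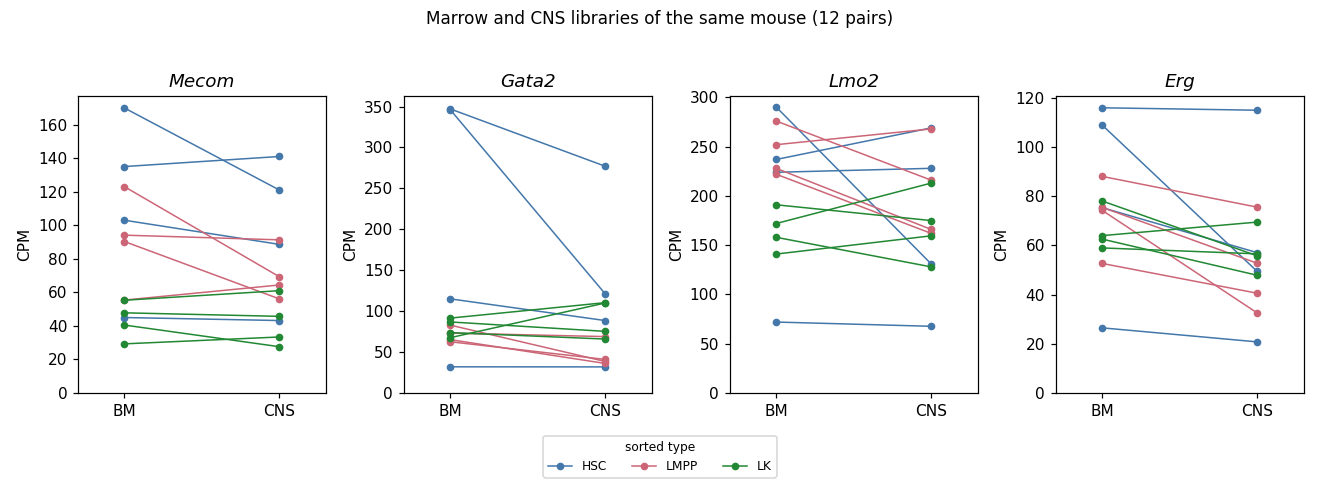
Levels of Mecom, Gata2, Lmo2 and Erg (CPM) in BM and CNS libraries joined by mouse, 12 pairs colored by sorted type. Erg lines go down from BM to CNS in 11 of 12 pairs and Gata2 lines in 10, with mouse differences as large as the change.

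The other heptad factors were read beside the 4 members of the 9 genes. Above background, Lyl1, a relative of Tal1, was higher in leukaemia by 1.69 ± 0.24 in HSC, 1.54 ± 0.24 in LMPP and 0.89 ± 0.23 in LK (edgeR adjusted p = 1.36e-05, 1.71e-05 and 0.00832). Fli1, an ETS factor like Erg, was higher by 0.96 ± 0.18, 1.25 ± 0.19 and 0.68 ± 0.18, and Runx1 by 0.86 ± 0.20, 0.92 ± 0.21 and 0.64 ± 0.20, all called there. In the all-gene fit these 3 were called in HSC and LMPP and not in LK. Of the 7 heptad genes, 4 rose and 1 fell in both fits in HSC, 3 rose and 1 fell in LMPP, and 0 rose and 1 fell in LK, the gene that fell being Tal1 each time. Of all genes, the all-gene fit called 20.3% higher in HSC, 26% in LMPP and 2.22% in LK, and 1.06, 36.8 and 1.3% lower. Above background the shares were 27.6, 32.7 and 10% higher and 20.6, 32 and 7.14% lower. These are shares of each fit alone. The share of all genes called in the same direction by both fits was not counted, here or for the lists below. Runx1 was above background in 0 of 4 control HSC and 1 of 4 control LMPP libraries. Its rise there thus starts from values near background, and the fall of Tal1 ends in them. The median of the 7 heptad genes was 0.86 in HSC, 0.70 in LMPP and 0.45 in LK above background, beside medians of -0.03, 0.02 and -0.04 over all genes tested.

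Genes of the complexes that Tal1 and Gata2 join, and of the lineages they serve, were read next. The 11 genes of the Tal1 complex list that are not among the 9 summed to 989 to 1376 CPM in leukaemia and 498 to 843 CPM in control LMPP, and overlapped in LK, at 768 to 1069 and 870.4 to 1137 CPM. In LK, Gata1, which pairs with Tal1 in red cells, fell by 3.83 on the log2 scale with an SE of 0.46 (edgeR adjusted p = 3.37e-07) and was at -4.11 ± 0.39 above background, and Zfpm1, the cofactor of GATA factors, was at -2.33 and -2.61. Of 15 erythroid genes in both fits, 10 fell and 2 rose in leukaemia LK, where the fits called 1.3 and 7.14% of all genes lower and 2.22 and 10% higher, with Car1 at -6.48, Aqp1 at -5.23 and Klf1 at -5.13 in the all-gene fit. In the erythroid list 15 genes were above background in all control LK libraries and 3 in all leukaemia BM LK libraries. The list could thus pass the filter through control LK, and the fit above background gives no separate support for these falls. Summed over the list of 16, erythroid genes came to 235 to 548 CPM in leukaemia LK and 1290 to 1833 CPM in control LK. That sum moved with Tal1 in LK, and its part in the Tal1 result was not tested. In HSC, where Tal1 also fell, the erythroid sums overlapped, at 319 to 587 CPM in leukaemia and 340.3 to 369 CPM in control. Megakaryocyte genes, a list of 13, summed to 208 to 311 CPM in leukaemia HSC and 337 to 395 CPM in control HSC, and their part in the Tal1 result was not tested either. These sums hold background: neuronal genes, none of them above background in either group, summed to 67.4 to 250.2 CPM in leukaemia BM HSC and 285 to 319 CPM in control HSC.

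Of a list of 39 other long-term stem cell genes, which leaves out the 9, 22 could be tested in both fits of leukaemia over control. In HSC 3 rose and 3 fell, in LMPP 4 rose and 5 fell, and in LK 2 rose and 6 fell. The all-gene fit and the fit above background called 20.3 and 27.6% of all genes higher and 1.06 and 20.6% lower in HSC. In LMPP they called 26 and 32.7% higher and 36.8 and 32% lower, each fit alone. In LK they called 2.22 and 10% higher and 1.3 and 7.14% lower. The median was -0.90 in HSC, -1.51 in LMPP and -0.49 in LK above background. Of 17 genes of differentiating progenitors, 11 rose in HSC and 10 in LMPP, and 0 fell in either, against the same shares of all genes, with Ctsg (5.14), Mpo (5.13) and Irf8 (4.48) the largest in HSC in the all-gene fit.

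Markers of cells that could carry these genes into a sort were read beside them. Mast and basophil genes, a lineage in which Gata2 is known to act, summed to 132 to 387 CPM in leukaemia BM HSC and 125 to 132 CPM in control HSC, and 3 of 8 rose and 0 fell, Cpa3 by 5.13, Mcpt8 by 4.74 and Ms4a2 by 3.57 in the all-gene fit. In HSC the all-gene fit called 20.3% of all genes higher and 1.06% lower. Above background these shares were 27.6 and 20.6%. The mast and basophil list moved with Gata2 in HSC, and its part in the result was not tested. Endothelial genes, a list of 16 and a known site of Erg, Procr and Mecom, summed to 281 to 373 CPM in leukaemia BM HSC and 433 to 492 CPM in control HSC. That gap has the direction of the background, as the neuronal sums have. Of the 16, 8 were above background in 0 of 36 libraries, among them Cldn5 and Kdr, and Pecam1 was above it in 32, Eng in 27, Egfl7 in 26, Cdh5 in 13, Plvap in 11, Tie1 in 8, and Esam and Stab2 in 3 each. Microglia and macrophage genes summed to 179 to 3504 CPM in CNS HSC and 112 to 294 CPM in BM HSC, to 130.0 to 711 and 57.2 to 219 CPM in LMPP, and to 107 to 233 and 119 to 228 CPM in LK. They moved with tissue in HSC and LMPP, as Erg did, and their part in the Erg result was not tested.

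Genes whose levels followed those of a member most closely were named for description only, by Pearson's r of log2(CPM + 1). Over the 12 control libraries, Mecom was most alike Ltb (0.96), Gm17017 (0.95) and Hlf (0.94), and Hlf most alike Itgax (0.95), Mecom (0.94) and Trp53i11 (0.92), so the 2 factors were among each other's nearest genes of 11114. Control Gata2 was most alike Apoe, Itga2b and F2r (0.99 each), and control Tal1 most alike Wdfy3, Gm6652 and Nbas (0.99 each). Over the 24 leukaemia libraries, Mecom was most alike Gm4759 (0.96), Tgtp2 (0.93) and Tgtp1 (0.91), and Gata2 most alike Igf1r (0.96), Galnt6 (0.95) and I730030J21Rik (0.95). Leukaemia Erg was most alike Susd1 (0.99), Plscr3 (0.98) and Fam117a (0.97), with 0.85 for Lmo2 and 0.82 for Gata2. Leukaemia libraries come in pairs from 1 mouse and control libraries 3 to a mouse, and all share sorted types and background, so these values carry no test. With the share of background, control Mecom had an r of 0.85 and control Hlf of 0.75. In leukaemia that r was 0.90 for Fgd5, 0.88 for Ndn, 0.85 for Procr, 0.81 for Hlf and Tal1, 0.11 for Mecom, 0.02 for Gata2, -0.39 for Erg and -0.64 for Lmo2.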

How the data were processed

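Total RNA of sorted cells was made into stranded libraries with a kit for low input, per the labels' protocols. The authors deposited counts in 2 tables, with 24 leukaemia libraries in one and 12 control libraries in the other. Both are called normalised, but their values are whole, unscaled counts. DESeq2 and build GRCm39 appear in the submitters' processing notes, per the labels. No source used here names the aligner, the counter or its strand setting.

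Symbols and exon lengths came from an annotation of GRCm38 (52081 identifiers matched, 3333 not). edgeR 4.0.16 (glmQLFit, glmQLFTest) in R 4.3.3 tested genes that reached 10 counts in 4 or more libraries, scaled by trimmed mean of M values, with no block. Leukaemia against control used the 24 BM libraries of both tables. Tests measure the spread between these mice. Fold changes come from fits scaled on their own libraries, so ratios of CPM levels, which are scaled over all 36 libraries, can differ from them.

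CNS and BM libraries of 1 leukaemia mouse, and types of 1 control mouse, share the animal, which pairs these samples by origin. The median correlation of deviations from group means was 0.25 in leukaemia pairs (-0.37 to 0.73) and 0.02 in control pairs (-0.40 to 0.14). Alternatives were DESeq2 1.42.0, other scalings, no filter, genes above background, the mouse block, only the 2 groups compared, and leaving out each library. A fit without leukaemia mice HSC 4 and LMPP 3, leaving out libraries above background, and levels less the background expected for a gene's exon length, were chosen after seeing the data. The all-gene fit was tested on simulated data without a background that differs by group. That test does not cover the difference between the all-gene fit and the fit above background. The 9 genes and 13 gene lists were chosen with earlier results of these data known. Named are all 9 genes, the heptad and sort genes, of each list the 3 called genes with the largest change, and the 3 genes most alike a member.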

Additional observations from a re-analysis of the deposited data

Results flagged for a closer look

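The level of each of the 9 genes was compared among the 4 libraries of each of the 9 groups, which makes 81 tests, and chance alone flags about 1 in 20 groups. In 3 of them a library lay far from the other 3. Gata2 in leukaemia CNS LMPP library 4 was at 68.9 CPM, against 36.1 to 41 CPM in the others. Fgd5 in leukaemia BM HSC library 4 was at 35.7 CPM, against 8.08 to 11.3 CPM. This library is also the one with the most background in its group. Fgd5 in control BM LK library 1 was at 7.63 CPM, against 14.3 to 14.5 CPM.

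The difference between HSC and LK depended on the arm for Gata2 and Tal1 by a test of the difference itself. The signed log2 fold change of HSC over LK was taken as leukaemia minus control. In the all-gene fit this was 2.84 for Gata2 (edgeR adjusted p = 0.00913) and 2.58 for Tal1 (edgeR adjusted p = 0.00114). Tal1 itself was lower in leukaemia in both types. Its leukaemia values lie near background, above it in 0 of 4 BM HSC and 1 of 4 BM LK libraries. Arm, overexpressed miRNA and deposited table cannot be told apart in both.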

How the results depend on the processing

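The counts below are those of the 9 genes called at an edgeR adjusted p under 0.05 (or DESeq2 where named), with the count of the all-gene fit first. In control HSC over LK, 9 became 5 above background, with or without the mouse block. In control HSC over LMPP, 1 became 0 with RLE scaling or the mouse block, and 2 with library totals or above background, blocked or not. In control LMPP over LK, 5 became 8 with library totals. In leukaemia over control, library totals gave 3 in HSC (all-gene 6) and 5 in LMPP (all-gene 9), and the fit above background gave 3 in LMPP. In LK, 2 became 4 with only the 2 groups compared. In leukaemia BM HSC over LK, 0 became 1 with DESeq2. Without leukaemia mice HSC 4 and LMPP 3, the fit above background called 1 in that comparison, 5 in LMPP and 4 in LK of leukaemia over control, and 4 for the difference between HSC and LK (all-gene 2). Pairing by the mouse block took the all-gene Gata2 call in control HSC over LMPP (1.23, edgeR adjusted p = 0.0851), added Ndn in control LMPP over LK (0.85, edgeR adjusted p = 0.0408), and above background added Erg in CNS over BM, where 0 became 1. A block on replicate numbers alone, which pair no mice between the arms, put Mecom in HSC of leukaemia over control at 1.09 (edgeR adjusted p = 0.0507), and no block changed another all-gene call. The sign reversed for Erg in control HSC over LK (0.52 with library totals, 0.80 above background, 0.79 there with the mouse block) and control LMPP over LK (0.61, 0.97 and 0.94). In leukaemia over control it reversed for Erg in LMPP (-0.10 with library totals, -0.16 above background) and for Mecom in HSC (-0.20 and -0.21) and LMPP (-0.35 and -0.39, and -0.05 with RLE scaling and with DESeq2). Leaving out 1 library gave 8 to 9 calls in control HSC over LK, 0 to 1 in HSC over LMPP and 5 to 8 in LMPP over LK, the 8 without control LMPP library 3. It gave 5 to 6, 8 to 9 and 2 to 3 in HSC, LMPP and LK of leukaemia over control, 2 to 3 for the difference and 0 elsewhere. Above background the ranges were 4 to 5, 2 to 2, 5 to 6, 2 to 6, 2 to 4, 2 to 4 and 1 to 3 in the same order, and 0 elsewhere. There, leukaemia BM HSC library 4 left out gave 6 in HSC and 4 in LMPP and in LK, library 3 left out gave 1 for the difference, and control HSC library 2, 3 or 4 or control LMPP library 2 left out gave 2 in HSC. Of the fold changes under the other settings, 836 changed neither direction nor call, 28 gained a call and 29 lost one. Another 14 reversed sign where either setting called the gene, and 44 changed sign with no call in either setting. The cause of these changes was not tested. Depth and background limit Hlf, Procr, Fgd5, Tal1 and Ndn in leukaemia libraries, where a value near background gives no level, and 4 mice per group limit every test.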
